A study of Drosophila melanogaster with 6 samples.

Results

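The genes described here act in the spermatogonia of the *Drosophila melanogaster* testis, and the rule that picks them lists their names and uses no measured value: *bam*, *bgcn*, *tut*, *mei-P26*, *zpg*, *esg*, *stwl* and *how*. A gene was measured where a probe set of the array named it alone, with no minimum on its level. This gave 7 of the 8 genes, with 1 probe set each, out of 11983 genes on the arrays. *how*, which encodes an RNA-binding protein of early germ cells, had no such probe set in the table of the array and was not analysed here. None of the 7 lies on chromosome 4, the chromosome that the protein encoded by *Pof* binds.

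Total RNA of dissected testes was hybridised to 6 Affymetrix arrays. Of these, 3 held RNA of *Pof* mutant males, homozygous for the *PofD119* allele, and 3 held RNA of wild type males. Both stocks carried the X chromosome markers *y1* and *w67c23*. Each biological replicate was a pool of 60 testes from males 0 to 24 h old, so an array gives the mean of many testes and not the level of a single fly. Whether the stocks were matched in the rest of their genetic background was not stated in the sources used here.

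In the testis, germline stem cells sit around a group of somatic cells called the hub. A stem cell daughter divides in a fixed series of mitoses as a cyst of connected spermatogonia, enclosed by somatic cyst cells, and then stops dividing and grows as primary spermatocytes. The protein Bam builds up during these divisions and is needed to end them. It works together with Bgcn, a protein related to RNA helicases, and Tut, a protein with an RNA recognition motif, in a complex that represses the translation of the *mei-P26* mRNA. Spermatogonia are a small share of the cells of a testis, and in RNA of whole testes fewer cells of a type and less RNA per cell cannot be told apart.

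The levels below are values of RMA, the method that corrects background, brings the arrays to one distribution and summarises the probes of a set on the log2 scale. The methods of the study describe a constant that matches total expression between genotypes, without naming the scale. Here each mutant array was shifted so that its mean on the log2 scale equalled that of wild type. The shift was -0.016, 0.062 and 0.15 for mutant replicates 1, 2 and 3 and was set on the 7510 genes with a wild type level of at least 6. *Pof* itself lay between 12.89 and 13.06 on the wild type arrays and between 10.36 and 10.56 on the mutant arrays. The main axis of variation (59.2% of the variance) set replicate 2 of both genotypes apart from the rest, and the genotypes parted on the next one (29.8%). Genes known for spermatids had a summed level, the log2 of their sum on the linear scale, of 16.12 to 16.26 on the 6 arrays, and all 8 of those listed lay above 6 in wild type. Genes of the accessory gland, an organ next to the testis, were also high, with summed levels of 15.79 to 16.20 on the 6 arrays. Of the 8 spermatid genes 2 were called lower, *dj*, a sperm tail gene (-0.68, limma adjusted p = 0.0059), and *Mst84Db* (-0.47, adjusted p = 0.039), beside 1.43% of all genes. The other 6 did not pass, and 5 of the 8 had a mean above that of wild type. Of 5 fat body genes 2 were called lower, the larval storage protein gene *Lsp2* (-1.56, limma adjusted p = 0.024) and *Fbp1* (-1.60, adjusted p = 0.033), beside the same 1.43%. The other 3, all with a wild type mean below 6, did not pass and had means above those of wild type. The list had a summed level of 8.76 to 9.55 in wild type and 7.82 to 8.24 in mutant testes. The part of these cells in the values below was not tested.

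None of the 7 spermatogonial genes passed the test between *Pof* mutant and wild type testes. In limma, with Benjamini-Hochberg adjustment over all 11983 genes and a threshold of 0.05, 0 of the 7 were called, beside 3.50% of all genes (2.07% higher and 1.43% lower). That split depended on the scale of the constant: 59.2% of the calls were higher here, and 48.9% (198 higher, 207 lower) with a constant set on linear values. In this main fit an unadjusted p under 0.05 was found for 0 of the 7 as well, beside 15.6% of all genes. The adjusted p of the 7 lay between 0.364 and 0.712. Their median log2 change was -0.089, beside 0.067 over all genes, with *bgcn*, *tut* and *esg* above wild type and *bam*, *mei-P26*, *zpg* and *stwl* below it. The changes reached from -0.20 to 0.35. When arrays of one replicate number were treated as a block, 0 of the 7 passed too, while the share of all genes called went up to 6.38%.

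**Figure D1:**
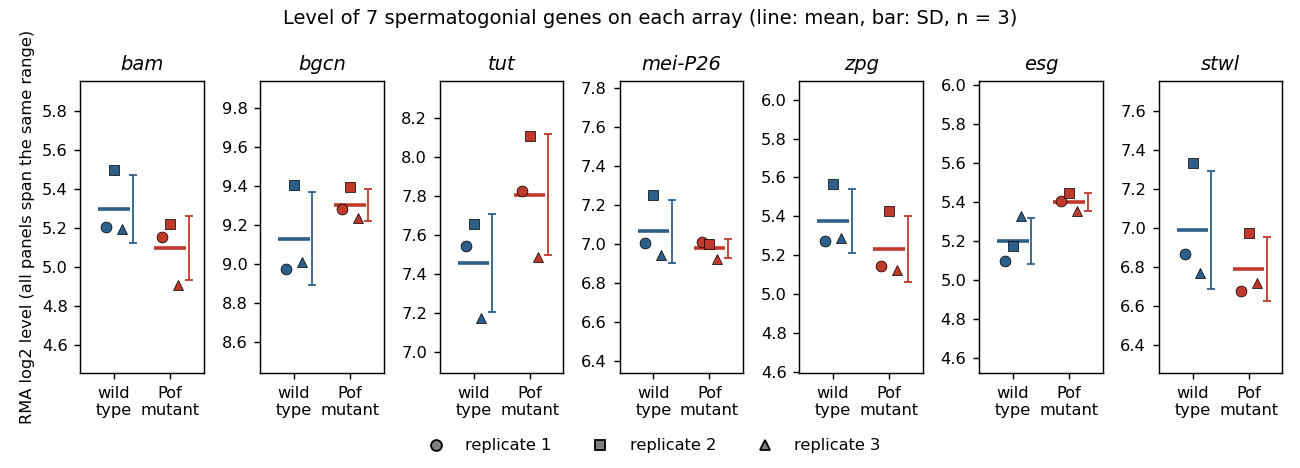
RMA log2 level (y axis, the same range in each panel) of the 7 measured genes on the 3 wild type (blue) and 3 *Pof* mutant (red) arrays, with the mean as a line, the SD as a bar beside it (n = 3) and the replicate number as the marker. Only for *esg* do all mutant arrays lie above all wild type arrays, and the square of replicate 2 is the highest in both genotypes for 5 of the 7 genes.

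The first of the 3 genes of the Bam complex, *bam* (Entrez Gene 43038, chromosome arm 3R), was weakly measured. Its levels were 5.20, 5.50 and 5.19 in wild type replicates 1, 2 and 3 and 5.16, 5.22 and 4.91 in the mutant replicates. The lowest wild type arrays lay just below the highest mutant array, so the groups overlapped, and all 6 arrays were below 6. The study set aside genes below that level in wild type as too weak to read. The log2 change was -0.20 (standard error 0.13, 95% confidence interval -0.51 to 0.11, limma adjusted p = 0.520), which is 86.9% of the wild type level with an interval from 70.2% to 108%. With no constant the mutant arrays (at most 5.17) were all under the wild type arrays (at least 5.19). They were also all under them with a constant set on all genes or on linear values. Whether the groups overlapped thus depended on the scaling. With the constant used here, 8.11% of all genes had every mutant array below every wild type array. That share was not taken under the other scalings.

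*bgcn* (Entrez Gene 47873, 2R), the partner of *bam*, was well above 6 on every array. Its levels were 8.97, 9.41 and 9.01 in wild type and 9.28, 9.39 and 9.24 in mutant testes. The mutant arrays were close to one another and lay above wild type replicates 1 and 3, and wild type replicate 2 lay above all of them. The mutant stood at 113% of wild type, a log2 change of 0.17 (standard error 0.13, 95% confidence interval -0.15 to 0.49, limma adjusted p = 0.589). Without wild type replicate 2 it was 0.32 (adjusted p = 0.167).

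*tut* (Entrez Gene 317996, 3L) had the highest change of the 7 genes and also the widest spread between replicates. Its levels were 7.54, 7.65 and 7.17 in wild type and 7.82, 8.11 and 7.49 in mutant testes. Replicate 3 was the lowest and replicate 2 the highest array of both genotypes, so the groups overlapped although each mutant array lay above the wild type array of the same number, by 0.28, 0.45 and 0.31. This gave a log2 change of 0.35 (standard error 0.19, 95% confidence interval -0.11 to 0.81, limma adjusted p = 0.452). The mutant level was thus 127% of that in wild type, with an interval from 92.8% to 175%. The replicate SD of *tut* was larger than that of 88.4% of all genes. With replicate numbers as a block the standard error was 0.082 and the unadjusted p in limma was 0.0067, and the adjusted p, 0.076, missed the threshold.

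*mei-P26* (Entrez Gene 45775, X), whose TRIM-NHL protein limits growth and division in germ cells and whose mRNA the Bam complex represses, had nearly the same level in both genotypes. It was at 7.00, 7.25 and 6.94 in wild type and at 7.01, 7.00 and 6.92 in mutant testes. Only wild type replicate 2 stood off from the other 5 arrays. It changed by -0.089 (standard error 0.11, 95% confidence interval -0.34 to 0.16, limma adjusted p = 0.712). Without wild type replicate 2 its sign turned, to 0.014.

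*zpg* (Entrez Gene 251414, 3L) encodes innexin 4, a gap junction protein of germ cells that connects them with the somatic cells around them. Its levels were 5.28, 5.57 and 5.29 in wild type and 5.14, 5.43 and 5.12 in mutant testes, all below 6. Mutant replicate 2 lay above wild type replicates 1 and 3, and within each pair of arrays of one number the mutant was lower, by similar amounts (-0.13, -0.14 and -0.17). The log2 change was -0.15 (standard error 0.13, 95% confidence interval -0.45 to 0.16, limma adjusted p = 0.633).

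*esg* (Entrez Gene 34903, 2L), a zinc finger gene of the Snail family that maintains the hub and the stem cells beside it, was the only one of the 7 whose groups did not overlap with the constant used here. Its levels were 5.09, 5.18 and 5.33 in wild type and 5.40, 5.45 and 5.35 in mutant testes, all below 6. The lowest mutant array and the highest wild type array, both of replicate 3, were 5.35 and 5.33. In limma its log2 change was 0.20 (standard error 0.094, 95% confidence interval -0.021 to 0.42, limma adjusted p = 0.364; two-sided exact permutation test, p = 0.10, the smallest that 3 arrays against 3 allow). Of all genes, 22.7% did not overlap, 14.6% with the mutant arrays on top, so 1 of 7 is no more than the background. With no constant mutant replicate 3 was at 5.20, below wild type replicate 3, and the groups overlapped, as they did under both other ways of setting the constant.

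The hub was also read through its other genes, since *esg* is known there. *CadN*, which encodes N-cadherin and marks hub cells, fell by 1.28 on the log2 scale in mutant testes (standard error 0.16, limma adjusted p = 0.0072), with 7.76, 7.97 and 7.50 in wild type and 6.58, 6.57 and 6.23 in mutant arrays. The hub genes *upd1*, which encodes the ligand of the JAK-STAT pathway, and *hh*, which encodes the ligand Hedgehog, had changes of 0.22 (adjusted p = 0.405) and 0.20 (adjusted p = 0.581) and were named after their values were seen. Both were weak, with wild type means of 4.79 and 5.95, below 6. The summed level of these 3 of the 4 listed hub genes was 8.07 to 8.43 in wild type and 7.40 to 7.69 in mutant testes, set mainly by *CadN*. The part of hub RNA in the value of *esg* was not tested.

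*stwl* (Entrez Gene 39581, 3L) encodes a chromatin protein known from the ovary, where it keeps germline stem cells. Its levels were 6.87, 7.33 and 6.77 in wild type and 6.67, 6.97 and 6.72 in mutant testes. Replicate 2 was the highest of each genotype, and mutant replicate 2 lay above wild type replicates 1 and 3, so the groups overlapped. The log2 change was -0.20 (standard error 0.17, 95% confidence interval -0.60 to 0.20, limma adjusted p = 0.615), and without wild type replicate 2 it was -0.018.

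**Figure D2:**
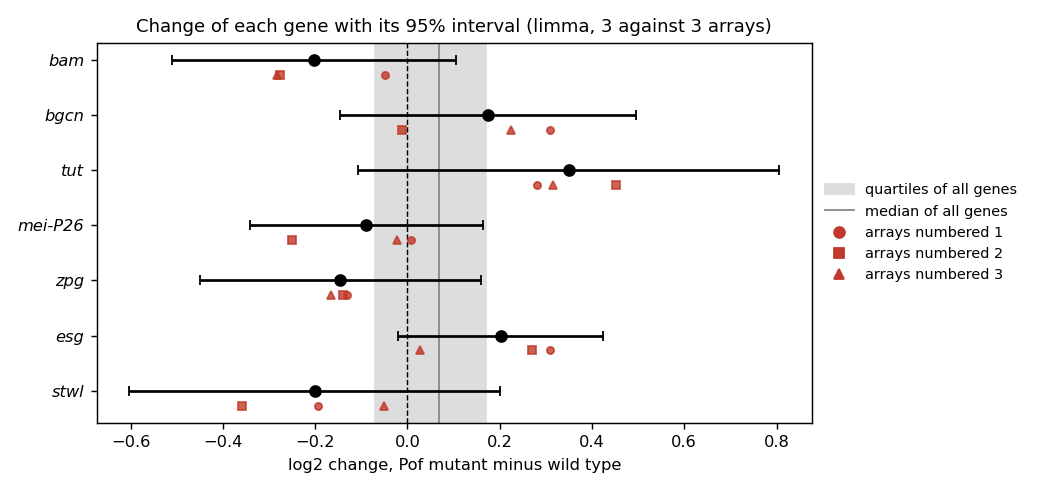
Log2 change of each gene, *Pof* mutant minus wild type (x axis), as the limma estimate with its 95% confidence interval (black) and, in red, the difference of the 3 pairs of arrays with the same replicate number; the grey band spans the quartiles of all 11983 genes and the grey line their median of 0.067. Every interval includes 0, and the widest, that of *tut*, reaches 0.81.

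For 5 of the 7 genes the mutant array was on the same side of the wild type array in all 3 pairs of one replicate number. *tut* and *esg* were higher in all 3 pairs, and *bam*, *zpg* and *stwl* were lower. Of all genes, 46.6% went one way in all 3 pairs, 29.3% higher and 17.3% lower, so these counts stand on a high background. *bgcn* was lower in the pair of replicate 2 (-0.012) and higher in the other pairs, and *mei-P26* was higher in the pair of replicate 1 (0.0072) and lower in the other pairs.

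Because the constant shifts all genes of an array alike, the difference between 2 genes within an array does not depend on it, and the genes were also compared in this way. For *bam* minus *tut* the differences were -2.34, -2.15 and -1.98 in wild type and -2.67, -2.88 and -2.57 in mutant testes. Every mutant array was below every wild type array, and the mean went from -2.16 ± 0.18 (SD, n = 3) to -2.71 ± 0.16 (SD, n = 3), a shift of -0.55 of *bam* relative to *tut*. For *bam* minus *bgcn* the mean went from -3.83 ± 0.070 (SD, n = 3) to -4.21 ± 0.10 (SD, n = 3), again with no overlap. *bam* lay below 6 on all 6 arrays, so the size of these shifts is uncertain. *bgcn* minus *tut*, the comparison of the partners, overlapped between the genotypes, at 1.67 ± 0.21 (SD, n = 3) without and 1.50 ± 0.23 (SD, n = 3) with the mutation.

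*mei-P26*, the target of the complex, was compared with its 3 regulators in the same way. *bgcn* minus *mei-P26* went from 2.06 ± 0.094 (SD, n = 3) to 2.33 ± 0.064 (SD, n = 3) and *tut* minus *mei-P26* from 0.39 ± 0.16 (SD, n = 3) to 0.83 ± 0.27 (SD, n = 3), both without overlap. *bam* minus *mei-P26* overlapped, at -1.77 ± 0.029 (SD, n = 3) and -1.88 ± 0.12 (SD, n = 3). Of all 21 pairs among the 7 genes, 10 did not overlap, beside 26.0% of all pairs of genes on the arrays. All 10 paired a gene whose mean was higher with one whose mean was lower, a split read from the same values. Pairs share genes and are not independent. Each of the 10 had p = 0.10 in the two-sided exact permutation test, the smallest possible, and 0.21 after adjustment over the 21 pairs, so none passed. The probes of different genes are not on one scale, so only the shift of such a difference between genotypes can be read and not its size.

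**Figure D3:**
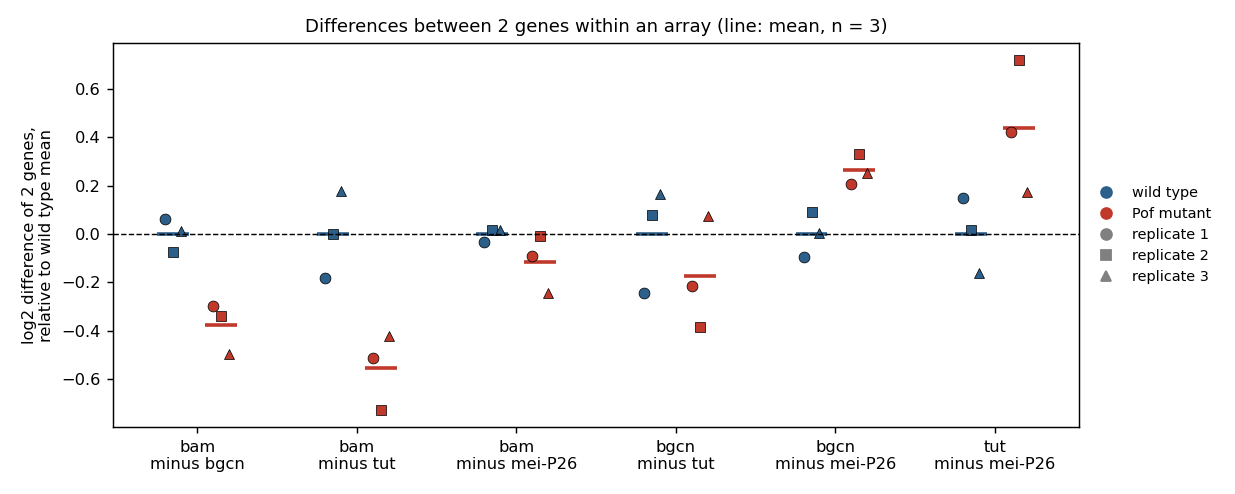
Difference of 2 genes within each array on the log2 scale, relative to the wild type mean of that difference (y axis), for the 6 pairs among *bam*, *bgcn*, *tut* and *mei-P26*, with wild type in blue, *Pof* mutant in red, the mean as a line (n = 3) and the replicate number as the marker. In 4 of the 6 pairs the genotypes do not overlap, beside 26.0% of all pairs of genes, and in *bam* minus *mei-P26* and *bgcn* minus *tut* they do. None passed (two-sided exact permutation test, p of at least 0.21 after adjustment over 21 pairs).

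In both genotypes replicate 2 was the highest array for *bam*, *bgcn*, *tut*, *zpg* and *stwl*, 5 of the 7 genes, beside 34.1% of all genes. In wild type, replicate 2 lay above the mean of the other arrays by 0.52 for *stwl*, 0.41 for *bgcn*, 0.30 for *bam*, 0.30 for *tut* and 0.28 for *zpg*. In the mutant the same differences were 0.28, 0.14, 0.19, 0.45 and 0.29. *mei-P26* was highest in replicate 2 in wild type only (0.28, against 0.032 in the mutant) and *esg* in the mutant only (0.067, against -0.035 in wild type). Over all genes the median of this difference was 0.065 in wild type and 0.054 in the mutant. Over the 7510 genes with a wild type level of at least 6 it was 0.14 and 0.10, and replicate 2 was the highest array for 62.1% of them in wild type and 57.1% in the mutant.

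Other RNA moved with replicate 2 as well. The summed level of the 7 listed genes of primary spermatocytes was highest in replicate 2 of both genotypes, at 11.99 in wild type and 11.86 in the mutant, where the lowest arrays were at 11.59 and 11.51. The summed level of 3 genes, of 4 listed for the ejaculatory duct and bulb, was lowest in replicate 2 of both genotypes, at 14.18 in wild type and 14.29 in the mutant, beside up to 15.23 and 15.58. Replicate 2 minus the mean of the other arrays was -2.24 in wild type and -2.64 in the mutant for *EbpII*, and -2.45 and -2.73 for *Ebp*. *Dup99B* did not follow, at -0.14 and 0.049. These 3 genes were named after their values were seen. The summed level of 3 muscle genes, of 6 listed for the muscle sheath, was lowest in replicate 2 of both genotypes, at 9.77 in wild type and 9.87 in the mutant, beside up to 10.96 and 10.48. The part of these tissues in the levels of the spermatogonial genes was not tested. Without both arrays of replicate 2, 0 of the 7 genes passed, and the changes were -0.16 for *bam*, 0.28 for *bgcn*, 0.31 for *tut*, -0.14 for *zpg*, 0.18 for *esg*, -0.11 for *stwl* and 0.0010 for *mei-P26*.

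**Figure D4:**
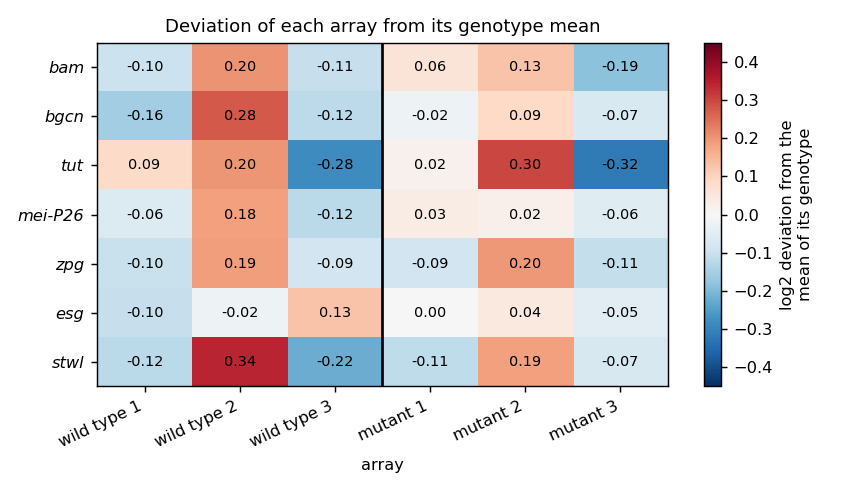
Deviation of each array (x axis) from the mean of its genotype on the log2 scale, for each of the 7 genes (rows), with values printed in the cells and red above the mean. The columns of replicate 2 are red for *bam*, *bgcn*, *tut*, *zpg* and *stwl* in both genotypes, with the highest value, 0.34, for *stwl* in wild type.

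Other genes that act before, around and after these divisions were read from 7 lists with 75 names, of which 59 genes were measured. Of the 59, 1 was higher, 0 were lower and 58 did not pass, beside 3.50% of all genes called, and their median change was -0.0080, beside 0.067 over all genes. The gene that rose was *Inx3*, an innexin like *zpg*, with 8.60, 8.55 and 8.49 in wild type and 9.35, 9.07 and 9.10 in mutant testes, a log2 change of 0.63 (standard error 0.10, limma adjusted p = 0.025). Leaving out any one array ended this call (adjusted p between 0.053 and 0.117), as did no constant (0.086) and a constant set on linear values (0.057). Unlike *zpg*, *Inx3* was well above 6, and it is expressed in somatic tissues. The list of paralogs of the 8 genes held 14 measured genes, of which 13 did not pass. The 4 relatives of *how* in it, genes of RNA-binding proteins with the same domain type, went both ways: *qkr58E-3* had a change of -0.32 (adjusted p = 0.117), *qkr58E-1* of 0.43 (adjusted p = 0.126), *qkr58E-2* of 0.18 and *qkr54B* of -0.023. All but *qkr58E-3* were named after their values were seen.

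Of 8 measured factors of germline stem cells none passed, and their median was -0.025. *aub*, a Piwi family gene, was at 7.78, 7.90 and 7.67 in wild type and 7.04, 7.35 and 7.25 in mutant testes, a change of -0.57 whose limma adjusted p, 0.0502, lay just above the threshold. With replicate numbers blocked it passed (limma adjusted p = 0.032), as it did with no constant (0.029). With any 1 array left out it did not pass (adjusted p between 0.080 and 0.220), nor without both replicate 2 arrays (0.106). *Stat92E*, the transcription factor of the JAK-STAT pathway, had a change of 0.017. Among 12 measured genes of the niche signals, JAK-STAT and BMP, none passed, and the BMP ligand gene *gbb* and the BMP receptor gene *sax* had changes of 0.23 (adjusted p = 0.336) and -0.21 (adjusted p = 0.396). Of the signal through which germ cells attract their cyst cells, the EGF pathway, 4 of 9 genes were measured and none passed, with -0.13 for the ligand gene *spi* and 0.22 for the ligand gene *Krn*.

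The fusome, the membranous organelle that joins the spermatogonia of a cyst, was read through 6 genes, and none passed: *TER94*, which encodes an ATPase, had a change of -0.050 and *alpha-Spec*, a spectrin, one of 0.12. Only 4 of 9 cell cycle genes were measured and none passed, with -0.13 for the mitotic cyclin gene *CycB* and -0.015 for *Dp*, the partner of E2F. All 11 genes listed for the exit from the spermatogonial programme were measured. The list also holds genes of primary spermatocytes such as *aly*, *can* and *sa*, so it is not specific to spermatogonia. None passed, 9 had a mean below and 2 a mean above wild type, and the median was -0.20. In all 3 pairs of one replicate number 8 of the 11 were lower, beside 17.3% of all genes, which is given as a description with no test. *blanks*, which encodes a testis protein that binds double-stranded RNA, had a change of -0.25 (adjusted p = 0.324), and *sa*, a testis form of a general transcription factor subunit, one of -0.26 (adjusted p = 0.475). Of these 11 genes, 7 were highest in replicate 2 of both genotypes, as were 5 of the 7 spermatogonial genes. The list of 7 primary spermatocyte genes shares *aly*, *can* and *sa* with these 11. It had 3 means above and 4 below wild type and a median change of -0.067, and none of its genes passed.

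**Figure D5:**
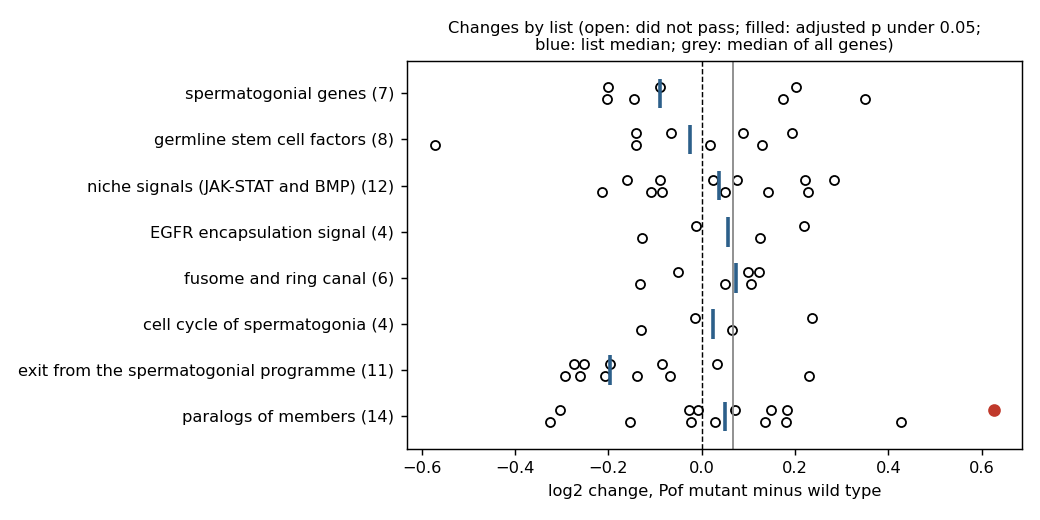
Log2 change, *Pof* mutant minus wild type (x axis), of each measured gene of the 7 spermatogonial genes and of the 7 other lists (rows, with the number of genes), open where the gene did not pass and filled where the limma adjusted p was under 0.05; the blue line is the list's median and the grey line the median of all genes, 0.067. The only filled point is *Inx3* at 0.63, and the list for the exit from the spermatogonial programme, which also holds spermatocyte genes, has the lowest median, -0.20.

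The genes whose pattern over the 6 arrays was most like that of *esg*, the gene with the largest moderated t of the 7, were *CG32212*, *pug* and *CG14275*, with Pearson correlations of 0.999, 0.974 and 0.971. They were the highest among 7570 genes with a mean level of at least 6, over 6 arrays that share the same genotypes and replicate numbers, and no test was made. Their own changes, 0.18, 0.16 and 0.32, did not pass (adjusted p = 0.411, 0.474 and 0.269).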

How the data were processed

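Testis RNA was measured on 6 arrays, 3 per genotype. The authors used RMA, whose version the sources used here leave out, to make the deposited log2 values. It brings arrays to one distribution, so a change shared by most genes would be removed. Of 18952 probe sets, 13647 carried the name of 1 gene, 402 of several and 4903 of none, and only the first were used, averaged into 11983 genes, with symbols and arms from the Release 6 gene table (11894 matched). No minimum was applied. A constant matching total expression, whose scale the methods do not name, was set on the mean log2 level. Each gene was fitted with limma 3.58.1 in R 4.3.3 (lmFit and eBayes, mutant minus wild type), which was checked on simulated data; figures used Python 3.11.15 and matplotlib 3.10.9. The number of arrays limits the precision. The members, gene lists and tests were chosen with earlier results of these data known. Named are the measured members and, per list, genes past the threshold, then those with the highest wild type level up to 2. Alternatives varied the constant, the minimum, the variance model, the probe sets and the arrays.

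Both genotypes have replicates 1, 2 and 3. Deviations of arrays with one number correlated at 0.41, 0.88 and 0.73 across genes. The numbers were also read as pairs, in the block fit and in the counts by pair, and the main fit did not use them. This is a reading from the data, since no source names a shared day. For mutant replicate 1 the value was higher with wild type replicate 3 (0.57), and for wild type replicate 1 with mutant replicate 3 (0.63). The pair of number 1 is thus not set apart by these values.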

Additional observations from a re-analysis of the deposited data

How the results depend on the processing

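Under 15 alternatives none of the 7 genes passed, and 97 of the 99 changes computed kept their sign. The exceptions were *mei-P26* without wild type replicate 2 (0.014) and without both replicate 2 arrays (0.0010); the cause was not tested. The block, the variance model, a minimum and single probe sets leave the change of a member as it was. Only the constant and the arrays left out could turn a sign. With the replicate number as a block the changes were as before, with adjusted p from 0.076 (*tut*) to 0.581 (*mei-P26*), and no call among the 7 changed. *bam*, *zpg* and *esg* had no value with a minimum of 6. An unadjusted limma p under 0.05 was found for at most 1 of the 7 in any alternative. It was found for *tut* with the block (0.0067) and without mutant replicate 3 (0.030). For *bgcn* it was found without wild type replicate 2 (0.017) and without both replicate 2 arrays (0.042), and for *esg* without wild type replicate 3 (0.043). The share over all genes was not taken in these fits. Leaving out 1 array, the changes ranged over -0.27 to -0.092 for *bam*, 0.098 to 0.32 for *bgcn*, 0.20 to 0.51 for *tut*, -0.16 to 0.014 for *mei-P26*, -0.24 to -0.040 for *zpg*, 0.15 to 0.26 for *esg* and -0.32 to -0.018 for *stwl*. Of all genes 248 were higher and 171 lower (59.2% higher), 152 and 180 with no constant (45.8% higher), 424 and 340 with the block, and 142 and 152 without both replicate 2 arrays. Leaving out 1 array these were 82 to 249 and 77 to 179. In the other lists 1 gene was higher, and 0 with no constant, with a linear constant, without any one array and without both replicate 2 arrays. *aub* was the 1 lower gene with no constant, with either other constant, with either minimum, with the block and with trend and robust options. It did not pass with each probe set on its own, with any 1 array left out or without both replicate 2 arrays. The number of arrays, and levels below 6 for 3 of the 7, limit these values.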
